A study of Mus musculus with 12 samples.

Results

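The genes described here are 40 interleukins and interleukin receptor chains, 21 ligands and 19 receptor chains, of the 561 genes on an nCounter Mouse Immunology panel. They are the genes whose symbol begins with Il and a digit. Another 17 such genes, among them Il1b, Il10, Il17a and Il2ra, were left out by the same rule. The nCounter assay counts barcoded probe pairs hybridized to RNA, without amplification. It was run on spleen and on mesenteric lymph nodes, which receive lymph from the intestine.

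All 12 mice were C57BL6 animals with an exon 16 knockout that gives hemophilia A, in which blood clots poorly for want of factor VIII, so the controls carried it too. There were 4 groups of 3 samples: spleens and nodes of mice given ampicillin by gavage when 3 weeks old, and spleens and nodes of untreated control mice. Organs were taken at 6 weeks of age, and the labels number 12 separate mice. The labels describe no mice gavaged with vehicle, so gavage and ampicillin cannot be told apart.

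Interleukins are secreted proteins by which leukocytes and stromal cells instruct each other, and they act through receptors built of several chains. Many chains are shared. The common gamma chain, from Il2rg, serves several T cell growth factors, gp130, from Il6st, serves interleukins 6, 11 and 27, and Il12rb1 serves interleukins 12 and 23. These receptors signal through Jak kinases and Stat factors, while the receptors of interleukins 17 and 18 signal through adaptors to NF-kB. Resting lymphoid organs carry most receptor chains on their lymphocytes, whereas many of the ligands are made briefly after stimulation.

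Levels are scaled counts, the deposited counts divided by a factor from 14 housekeeping genes. Totals ran from 396950 to 738489 counts per sample. The tissues differed in their cell markers. Summed over 11 T cell genes, control nodes held 16871 to 18324 scaled counts and control spleens 8524 to 9462. Summed over 8 B cell genes, control nodes held 14231 to 16402 and control spleens 28105 to 29511, and over 6 neutrophil genes 125 to 171 against 9445 to 18082. Of these genes only Ltf, of neutrophils, had a mean under 20 scaled counts over all samples. Ampicillin spleens 2 and 3 stood apart from spleen 1: 4 genes of red cell precursors summed to 7614 and 5764 scaled counts there. Ampicillin spleen 1 had 823 and the controls 759 to 1594.

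A mean of 20 scaled counts was the level asked of a group to call a gene above the low range, since no background from control probes was used here. A count of 20 itself has an exact Poisson 95% interval of 12.2 to 30.9, which covers counting error only. Among the receptor chains, 17 of 19 exceeded this level in control spleen and 16 of 19 in ampicillin spleen, control nodes and ampicillin nodes alike. Of the ligands, 5 of 21 did so in control spleen, ampicillin spleen and ampicillin nodes, and 6 of 21 in control nodes. The ligands above it in all 4 groups were Il7 and Il15, which sustain lymphocytes, Il12a and Il12b, the subunits of interleukin 12, and Il16, a ligand of CD4. Il11ra1 and Il17re, receptor chains for interleukins 11 and 17C, were the receptor chains above it in no group.

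Of the 40 genes, 20 exceeded the level in all 4 groups, 17 in none and 3 in some. Il21, a cytokine by which helper T cells drive germinal centres, was the ligand in between. It stood at 28.8, 16.7 and 29.8 scaled counts in control nodes 1, 2 and 3, and at 21.2, 18.6 and 17.2 in ampicillin nodes. Control spleens held 17.8, 6.47 and 11.9 scaled counts of it and ampicillin spleens 10.4, 9.06 and 14.3. Only 3 of the 12 samples lay above 20, and the values of control and ampicillin nodes overlapped. Il12rb1 had a mean of 14.6 ± 1.70 scaled counts (SD, n = 3) in ampicillin spleen and over 20 elsewhere, while its partner Il12rb2 had means under 20 in both node groups.

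The 15 ligands above the level in no group include the effector cytokines of helper T cells. Il4, the cytokine of type 2 helper T cells, ran from 4.76 to 19.9 scaled counts over the 12 samples, its neighbour Il13 from 2.59 to 11.8, and Il5, which sustains eosinophils, from 1.19 to 7.93. Il2, the T cell growth factor, ran from 3.38 to 19.1. Its highest values were 19.1 and 18.5, in control nodes 2 and 3. Il17f, a cytokine that acts on epithelium and draws neutrophils, ran from 5.54 to 17.2, and Il22, a cytokine of gut barrier defence, from 0.84 to 4.96. Il6, a product of many stimulated cells, ran from 6.47 to 16.6, and Il27, a product of dendritic cells and macrophages, from 6.47 to 20.8 with 1 sample above 20. Il3, Il9, Il17b, Il19, Il20, Il25 and Il28a stayed between 0.92 and 15.8 in all samples. Il21 and these ligands fell under the minimum set for the main test. When the 18 members under it were tested with no minimum, none passed for ampicillin in either tissue, with 0 at an unadjusted p under 0.05. Il21 was higher in control nodes than in control spleen (log2 change 1.06, edgeR adjusted p = 0.012), the 1 call among the 18 between tissues, where 25.6% of all genes were higher.

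**Figure D1:**
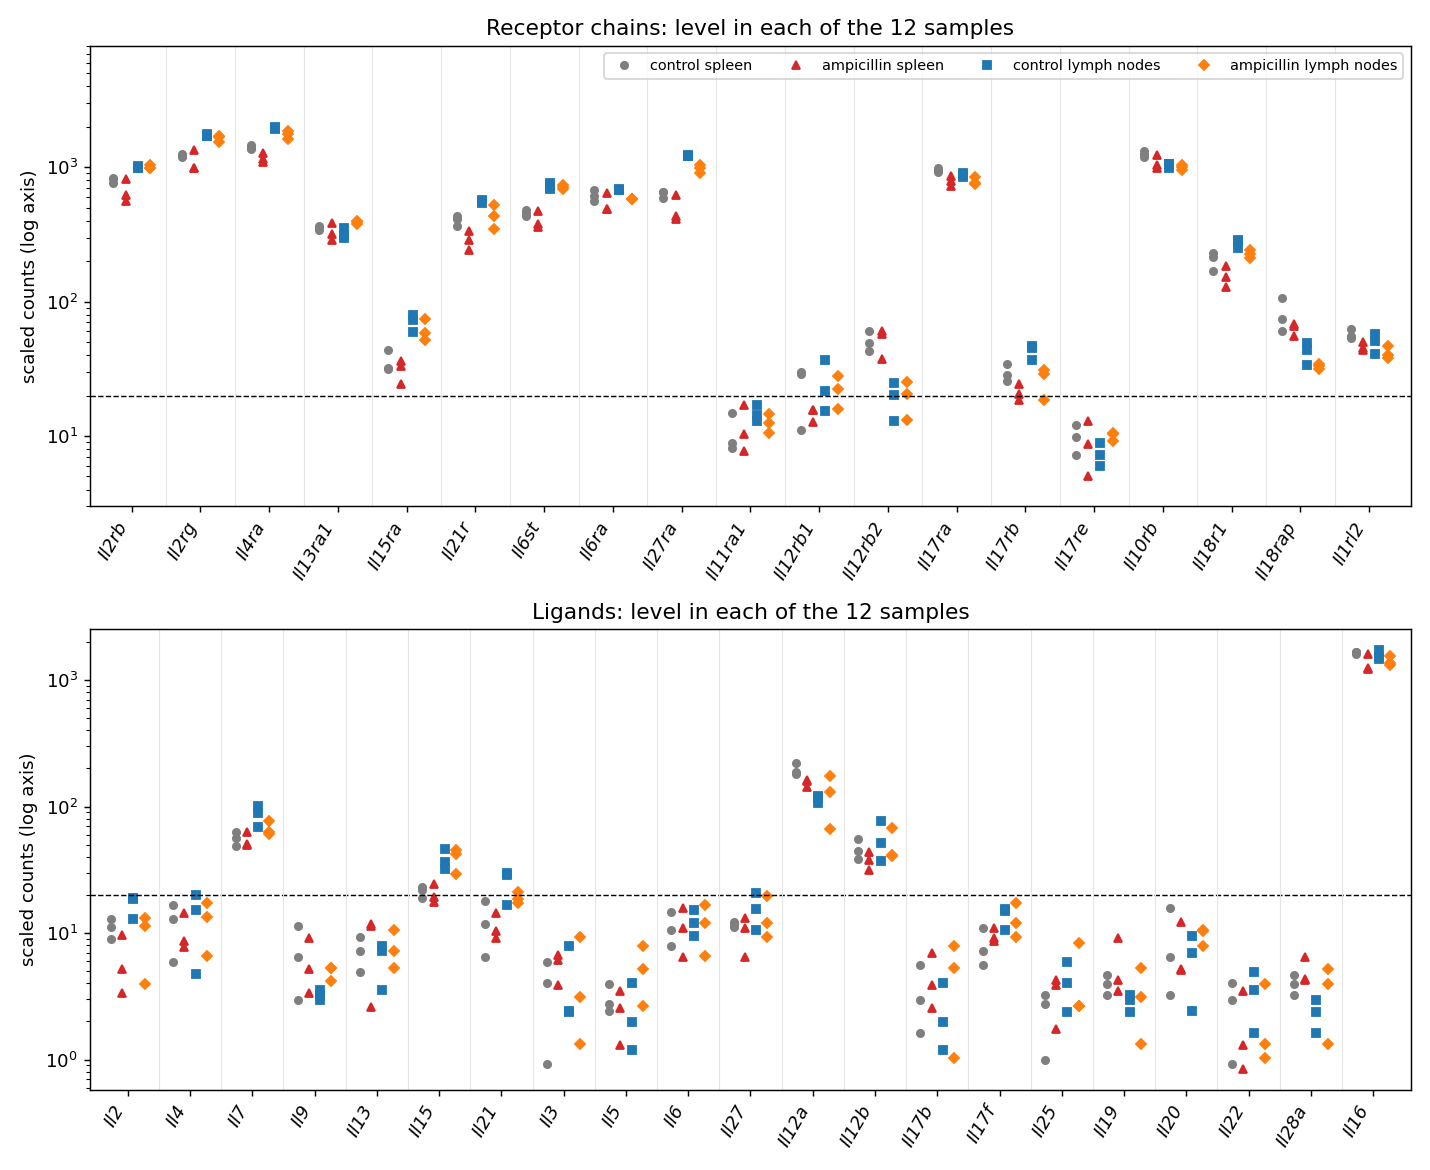
Level of each of the 40 genes in each of the 12 samples, in scaled counts on a log axis, with receptor chains in the upper panel and ligands in the lower panel. Each point is 1 sample, and the dashed line marks 20 scaled counts. By group mean, 17 receptor chains and 5 ligands lie above it in control spleen.

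A total of 22 members, 17 receptor chains and 5 ligands, had a mean of at least 20 scaled counts over all samples and were tested, and 18 were left out. Counts were tested with the quasi-likelihood test of edgeR over 445 genes, and a gene passed at a Benjamini-Hochberg adjusted p under 0.05. Il12rb2 passed this filter only through the spleen, where it was high. Each probe binds with its own efficiency and no length scale exists for it, so levels of different genes are not compared.

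In control mice the share of members that differed between the tissues was near that of all genes. Of the 22 members 11 were higher in nodes than in spleen and 4 were lower, together 68.2%. Over all 445 genes 64.0% differed, 29.7% higher and 34.4% lower. Among the 17 receptor chains 9 were higher and 3 lower. The members had a median log2 change of 0.27, against -0.03 for all tested genes. In ampicillin mice, which share no sample with the controls, 9 members were higher in nodes and 2 lower, beside 33.5% and 29.7% of all genes, or 63.1% in either direction. These 11 made up 11 of the 15 called in control mice and 11 of the 11 called in ampicillin mice. All of these counts hold Il12rb2 among the lower members, which entered the test only through its spleen level. Its calls are not taken as support. In bulk tissue, fewer cells of a type and less RNA per cell cannot be told apart. The node samples held more RNA of the 11 T cell markers and less of the 8 B cell markers, and the part of this in the differences was not tested.

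Il27ra, the chain that binds interleukin 27 and restrains or steers T cells, had among the largest differences. It stood at 596, 651 and 658 scaled counts in control spleens 1, 2 and 3 and at 1244, 1217 and 1210 in control nodes. Its level was 1.93-fold higher in nodes (log2 change 0.95, SE 0.13, adjusted p = 2.7e-05). The partner chain Il6st stood at 433, 485 and 458 scaled counts in control spleens and at 731, 767 and 690 in control nodes, a 1.59-fold difference (adjusted p = 6.1e-05). Both chains of the interleukin 27 receptor thus lay higher in every node than in every spleen of control mice. The share of all genes so separated between the tissues is not given, here or below. Such separation is therefore not read as particular to the members. Il6ra, which pairs with Il6st to bind interleukin 6, did not pass, with 617 ± 55.2 scaled counts in control spleen and 683 ± 6.29 in control nodes (SD, n = 3 each; adjusted p = 0.25). It passed with trimmed mean (TMM) scaling, at which 16 members did, beside 67.9% of all genes.

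The common gamma chain and its partners lay higher in nodes. Il2rg stood at 1214, 1183 and 1258 scaled counts in control spleens and at 1714, 1784 and 1721 in control nodes, which is 1.43-fold (adjusted p = 0.0011). Il4ra, the chain that binds interleukin 4 and interleukin 13, was 1.38-fold higher and Il21r, the interleukin 21 receptor, 1.38-fold. Il2rb, which serves interleukins 2 and 15 on T and natural killer cells, was 1.24-fold higher (adjusted p = 0.024). Il13ra1, which pairs with Il4ra on cells other than lymphocytes, stood at 354 ± 13.2 in control spleen and 322 ± 28.4 in control nodes and did not pass (adjusted p = 0.29). All 4 of the chains that passed were also higher in nodes of ampicillin mice, by 1.49-fold for Il2rg and Il4ra and 1.51-fold for Il21r and Il2rb.

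Interleukin 15 is handed to lymphocytes by cells that hold it on Il15ra. Both genes were higher in nodes. Il15 stood at 21.8, 23.1 and 18.8 scaled counts in control spleens and at 36.7, 46.4 and 32.2 in control nodes, 1.78-fold higher (adjusted p = 0.0071). Il15ra stood at 32.3, 43.4 and 31.7 in control spleens and at 73.4, 79.8 and 59.6 in control nodes, 1.97-fold higher (adjusted p = 0.0011). For each gene the tissues did not overlap in control or in ampicillin mice, without a share of all genes given. Il7, a stromal cytokine that keeps naive T cells alive, was 1.53-fold higher in control nodes (adjusted p = 0.0094). It stood at 48.5, 56.4 and 62.4 scaled counts in control spleens and 100.2, 88.1 and 68.5 in control nodes.

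Il12rb2, Il18rap, Il12a and Il10rb were lower in nodes of control mice. Il12rb2, the chain that gives the interleukin 12 receptor its signal, stood at 60.6, 49.0 and 42.6 scaled counts in control spleens and 24.8, 20.2 and 12.9 in control nodes. Ampicillin spleens held 51.7 ± 12.3 scaled counts of it (SD, n = 3) and ampicillin nodes 13.3, 20.7 and 25.1. Every node therefore lay below every spleen, without a share of all genes given. The log2 change was -1.42 (SE 0.29, adjusted p = 0.00073) in control mice and -1.40 (SE 0.30, adjusted p = 0.00094) in ampicillin mice. Il12rb2 entered the test only through its spleen level, with means of 19.3 in control nodes and 19.7 in ampicillin nodes. The filter thus favoured a lower value in nodes, and these p-values are not taken as support. Its partner Il12rb1 did not pass as different between the tissues. It stood at 29.9, 11.1 and 28.7 in control spleens and at 36.7, 15.5 and 21.8 in control nodes. Il12a, a subunit of interleukin 12, stood at 221, 181 and 187 in control spleens and at 117, 121 and 107 in control nodes (log2 change -0.77, SE 0.23, adjusted p = 0.010). Il12b, which interleukin 23 also uses, ranged from 31.2 to 76.4 over all samples and did not pass.

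The chains of the interleukin 18 receptor went opposite ways between the tissues. Il18r1, the chain that binds the cytokine, was higher in nodes, and Il18rap, the accessory chain needed for its signal, was lower. For Il18r1 control spleens held 217, 230 and 170 scaled counts and control nodes 250, 281 and 286, a log2 change of 0.40 (SE 0.14, adjusted p = 0.025). For Il18rap control spleens held 106, 74.8 and 60.4 and control nodes 43.7, 48.8 and 33.9, a log2 change of -0.95 (SE 0.22, adjusted p = 0.0017). In control mice neither gene overlapped between the tissues, without a share of all genes given. In ampicillin mice the log2 changes were 0.53 for Il18r1 and -0.93 for Il18rap, with adjusted p = 0.0064 and 0.0033. Both directions held with TMM scaling. Summed over 5 natural killer cell genes, control spleens held 1111 to 1525 scaled counts and control nodes 646 to 808. Of these 5 genes 2 passed as lower in nodes in control mice and 2 in ampicillin mice. Their median log2 change was -0.30 in control mice and -0.06 in ampicillin mice. Natural killer cells carry Il12rb2, Il18rap and Il2rb, and T cells carry Il2rb too. The part of either cell type in the differences was not tested.

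**Figure D2:**
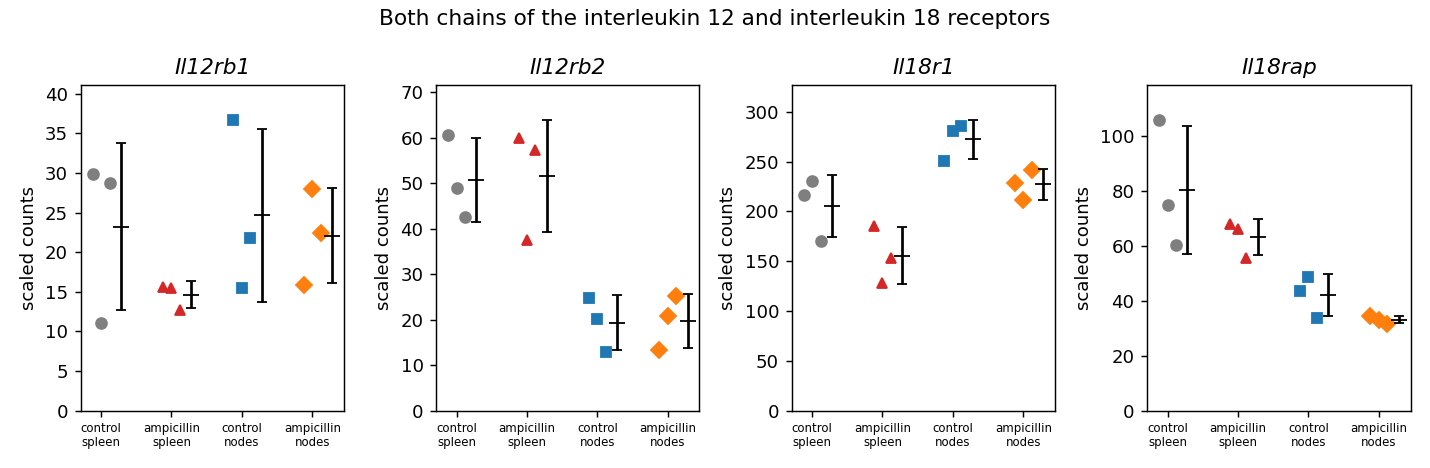
Scaled counts of both chains of the interleukin 12 receptor (Il12rb1 and Il12rb2) and of the interleukin 18 receptor (Il18r1 and Il18rap) by group. Each coloured point is 1 sample, and black bars give the mean and SD of 3 samples. Il12rb2 and Il18rap lie lower in all nodes than in all spleens, and Il18r1 lies higher in nodes than in spleens of the same treatment. No share of all genes so separated is given.

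Il18r1 and Il18rap are direct neighbours on mouse chromosome 1. Shown here are the 250 bases before 1 start of each gene and of Il12rb2, from RefSeq (GRCm38.p6), because these genes differ in direction between the tissues. The Il18r1 window is chr1:40465756-40466005 on the + strand, the third of 3 starts listed for the gene. The Il18rap window is chr1:40515112-40515361 on the + strand and the Il12rb2 window chr6:67376189-67376438 on the - strand. Capitals mark matches, on either strand, to the letters TTCNNNGAA, bound by Stat factors, GGGA and CC with 4 bases of any kind between, bound by NF-kB, or CCGGAAG, bound by Ets factors.
Il18r1: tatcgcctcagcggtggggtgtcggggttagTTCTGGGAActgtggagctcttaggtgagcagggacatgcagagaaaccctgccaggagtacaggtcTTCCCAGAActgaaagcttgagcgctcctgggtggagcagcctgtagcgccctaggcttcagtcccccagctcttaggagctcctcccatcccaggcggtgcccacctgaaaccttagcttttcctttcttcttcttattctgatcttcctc
Il18rap: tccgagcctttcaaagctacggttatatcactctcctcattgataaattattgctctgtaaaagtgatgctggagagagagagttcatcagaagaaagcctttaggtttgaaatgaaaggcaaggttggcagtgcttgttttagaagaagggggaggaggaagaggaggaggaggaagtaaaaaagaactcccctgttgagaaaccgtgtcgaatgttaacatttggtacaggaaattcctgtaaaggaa
Il12rb2: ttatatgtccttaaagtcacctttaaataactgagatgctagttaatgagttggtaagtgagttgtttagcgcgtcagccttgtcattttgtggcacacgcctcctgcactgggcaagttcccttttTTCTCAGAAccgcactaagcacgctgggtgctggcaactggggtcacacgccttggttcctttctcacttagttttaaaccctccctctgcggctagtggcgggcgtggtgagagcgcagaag
The TTCNNNGAA letters occur 2 times in the Il18r1 window and 1 time in that of Il12rb2. None of the searched letters occur in the Il18rap window or in the windows of the other 2 Il18r1 starts. TTCNNNGAA occurs in 3 of the 30 members with a listed promoter, or 10.0%, against 8.13% of all 27025 genes listed, counted on either strand in any listed window of a gene. For the NF-kB letters these shares are 30.0% and 19.7%, and for CCGGAAG 10.0% and 7.83%. A match is a run of letters and not a measured site.

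Il17rb, which with Il17ra binds interleukin 25, was 1.45-fold higher in control nodes (adjusted p = 0.045) but passed in only 5 of the 12 fits that left out 1 sample, and Il17ra itself stood at 956 ± 32.5 scaled counts in control spleen and 879 ± 27.4 in control nodes and did not pass. Il10rb, the chain shared by interleukins 10 and 22, stood at 1327, 1200 and 1262 in control spleens and 1052, 988 and 1051 in control nodes (log2 change -0.29, SE 0.09, adjusted p = 0.011). Il1rl2, the receptor of the interleukin 1 relatives of skin and gut epithelium, and Il16 passed in neither treatment. Il10rb, Il12a, Il17rb and Il7 passed in control but not in ampicillin mice. With TMM scaling Il10rb passed in ampicillin mice too (adjusted p = 0.030). A difference between the treatments was not shown for any of them, with adjusted p from 0.63 to 0.79 for the test of that difference.

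**Figure D3:**
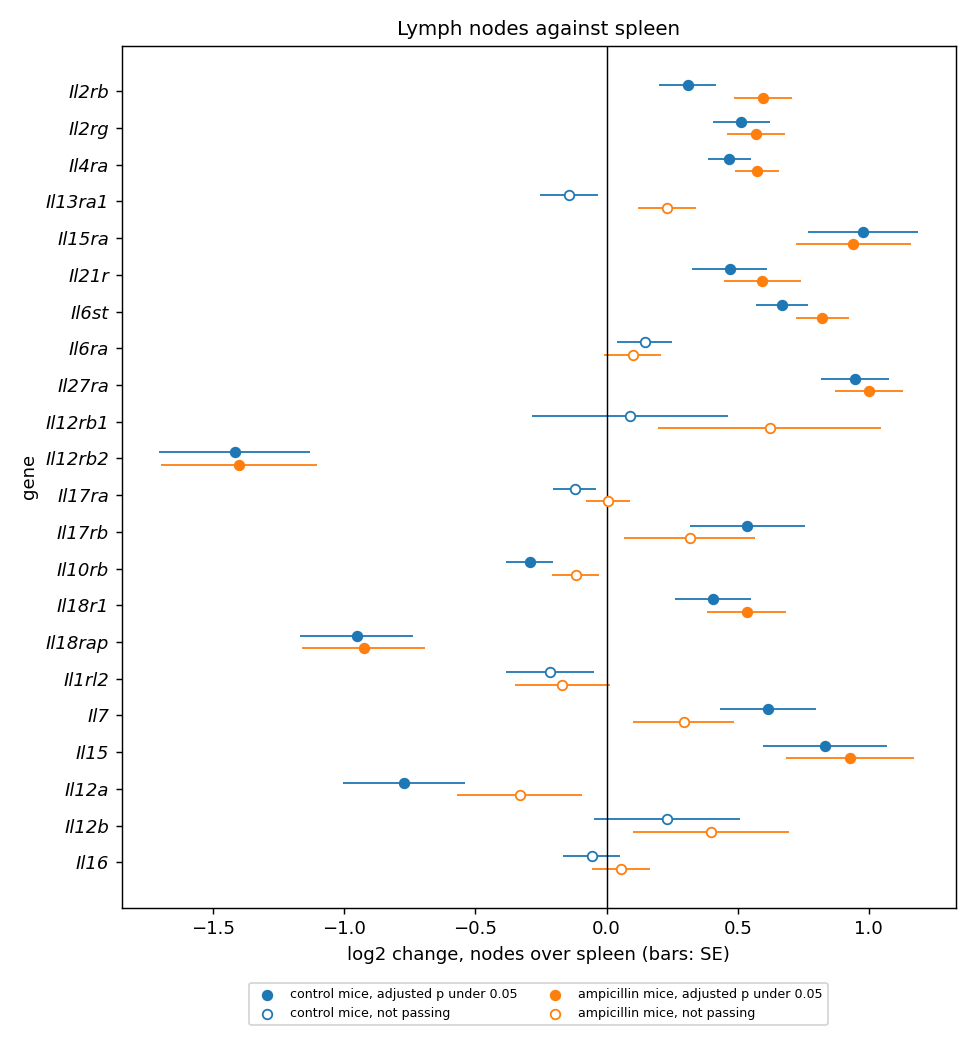
Log2 change of lymph nodes over spleen for the 22 tested genes in control mice (blue) and ampicillin mice (orange), with SE bars. Filled points passed at an adjusted p under 0.05. Il27ra and Il15ra lie near 1, Il12rb2 near -1.4, and Il18r1 and Il18rap lie on opposite sides of 0.

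Ampicillin against control was compared within each tissue. In spleen 3 of the 22 members fell and none rose, 13.6% lower. Of all genes 16.9% passed, 14.6% lower and 2.25% higher. All 3 were receptor chains: Il21r, Il4ra and Il17ra. The median log2 change of the members was -0.27 and that of all tested genes -0.17. With TMM scaling, which puts the median of all genes at 0.00063, none of the 22 passed with edgeR, with 1 at an unadjusted p under 0.05, beside 4.94% of all genes. DESeq2 called 4 members in spleen and limma 0, without the shares of all genes in those fits given here.

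Il21r, the interleukin 21 receptor of B and T cells, held 409, 436 and 365 scaled counts in control spleens 1, 2 and 3 and 338, 241 and 286 after ampicillin. On the log2 scale it fell by 0.48 (SE 0.15; adjusted p = 0.044). Il4ra stood at 1273, 1090 and 1152 against 1478, 1377 and 1385 and fell by 0.27 (SE 0.08, adjusted p = 0.044). Il17ra, the chain common to the receptors of interleukins 17A, 17F and 25, stood at 858, 720 and 789 against 928, 991 and 948 and fell by 0.27 (SE 0.08, adjusted p = 0.041). For these 3 genes all ampicillin spleens lay below all control spleens, as in 7 of the 22 members and 141 of all 445 genes. All 3 calls were lost when 1 of these was left out: ampicillin spleen 2 or 3, a control spleen, or a control node. A fit without spleens 2 and 3 together leaves 1 ampicillin spleen, so its calls are not given. Without ampicillin spleen 1, 11 members passed, all lower. The share of all genes in that fit is not given here, so the count is not read as particular to the members.

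Il4ra and Il21r are direct neighbours on chromosome 7. Their upstream windows are shown because both genes fell in the ampicillin spleen and both were higher in nodes. The windows are chr7:125552021-125552270 and chr7:125603179-125603428, both on the + strand of GRCm38.p6, from RefSeq, with capitals as above.
Il4ra: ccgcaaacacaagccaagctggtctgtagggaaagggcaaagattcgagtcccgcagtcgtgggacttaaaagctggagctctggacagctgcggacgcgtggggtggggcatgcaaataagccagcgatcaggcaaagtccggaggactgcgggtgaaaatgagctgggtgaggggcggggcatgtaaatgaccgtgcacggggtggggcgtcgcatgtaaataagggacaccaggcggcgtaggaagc
Il21r: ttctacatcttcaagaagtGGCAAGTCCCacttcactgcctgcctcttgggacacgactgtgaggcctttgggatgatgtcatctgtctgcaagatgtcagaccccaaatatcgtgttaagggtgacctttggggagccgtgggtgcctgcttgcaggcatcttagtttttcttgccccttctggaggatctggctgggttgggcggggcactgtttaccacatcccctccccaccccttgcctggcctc
The Il21r window holds the NF-kB letters 1 time, read on the opposite strand, and the Il4ra window holds none of the searched letters.

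Ampicillin spleens differed among themselves in these genes. In 21 of the 22 members ampicillin spleen 1 had the highest value of the 3, against 68.3% of all genes. Il15ra was the exception. For Il2rg, ampicillin spleens 1, 2 and 3 held 1347, 981 and 993 scaled counts, so that spleen 1 lay above the controls, which ranged from 1183 to 1258, and spleens 2 and 3 below them. In the same spleens Il2rb stood at 813, 617 and 565. Il27ra stood at 625, 413 and 431, with controls between 596 and 658 (log2 change -0.37, adjusted p = 0.069), and Il18r1 at 185, 128 and 154, with controls between 170 and 230 (-0.40, adjusted p = 0.083). The latter genes overlapped with the controls through spleen 1 and did not pass. In 16 of the 22 members spleens 2 and 3 both lay below all controls, against 54.8% of all genes, while spleen 1 lay below all controls in 7, or 31.8%, against 40.7% of all genes. Spleens 2 and 3 were those with high red cell precursor genes, and 4 of 4 such genes passed as higher in ampicillin than in control spleen. In spleens 2 and 3 the T cell markers summed to 5899 and 5354 scaled counts. Ampicillin spleen 1 had 8060 and the controls had 8524 to 9462, and 7 of the 11 passed as lower. The B cell markers summed to 26094, 22076 and 22776 in ampicillin spleens 1, 2 and 3 and to 28105 or more in controls, and 3 of the 8 passed as lower. A pair of dendritic cell genes, Itgax and Xcr1, summed to 324 to 363 in ampicillin spleens and 435 to 547 in controls, and both passed as lower. The part of these in the falls was not tested.

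In the lymph nodes 0 of the 22 members passed with edgeR, beside 0.449% of all genes (0.225% each way), and 4 had an unadjusted p under 0.05. DESeq2 and limma also called 0, without the shares of all genes in those fits given here. Il17rb stood at 18.6, 31.1 and 29.1 scaled counts in ampicillin nodes against 36.7, 46.4 and 45.1 in control nodes (log2 change -0.69, SE 0.23, adjusted p = 0.14). Il27ra stood at 989, 1044 and 912 against 1244, 1217 and 1210 (-0.32, SE 0.13, adjusted p = 0.19). Il21r stood at 349, 525 and 435 against 570, 545 and 562 (-0.35, SE 0.14, adjusted p = 0.19). In each of the 3 genes all ampicillin nodes lay below all control nodes, but the share of all genes that did so is not given here. Il27ra was the 1 member that passed when the nodes were fitted alone, without the share of all genes in that fit given here. Il6ra stood at 580, 582 and 584 against 690, 678 and 681 and did not pass (adjusted p = 0.25).

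Il13ra1 was the member with the largest value above 0 in nodes, 379, 398 and 393 scaled counts in ampicillin nodes against 316, 353 and 297 in controls (log2 change 0.28, SE 0.11, adjusted p = 0.19). With TMM scaling it was the 1 member that passed (adjusted p = 0.043), beside 7.19% of all genes. In spleen it stood at 387, 286 and 321 against 367, 355 and 341. The difference of the ampicillin effects, nodes minus spleen, was 0.37 for this gene (SE 0.16, adjusted p = 0.44). For that difference 0 of the 22 members passed with edgeR, with 1 at an unadjusted p under 0.05, and 0 with DESeq2, beside 0.0% of all genes with edgeR. Next in p were Il2rb (0.29), Il10rb (0.18), Il12a (0.44) and Il7 (-0.32), with adjusted p from 0.50 to 0.66. Without ampicillin spleen 1 Il13ra1 and Il2rb passed. The share of all genes in that fit is not given here, so this is not read as particular to these genes.

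**Figure D4:**
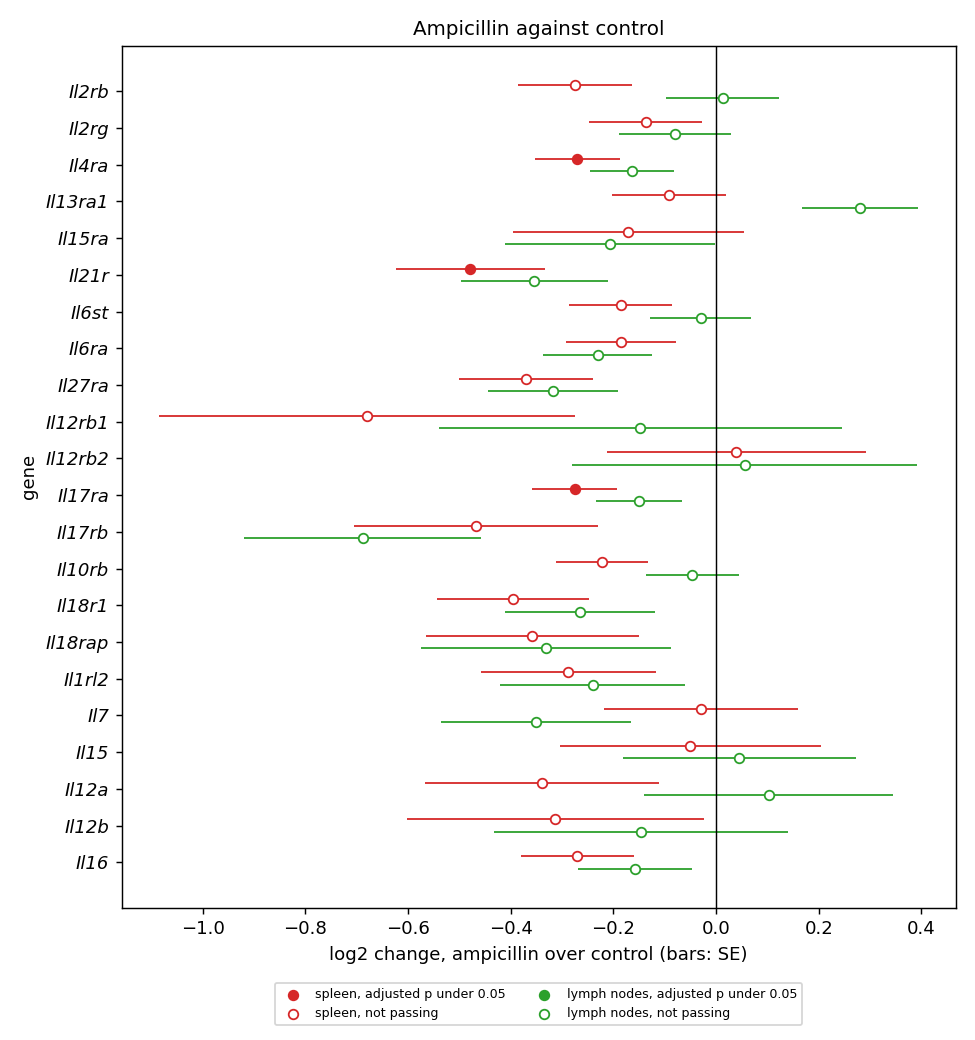
Log2 change of ampicillin over control for the 22 tested genes in spleen (red) and lymph nodes (green), with SE bars. Filled points passed at an adjusted p under 0.05, which are Il4ra, Il21r and Il17ra in spleen. In spleen 21 of the 22 values lie below 0 and in nodes 17.

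Averaged over both tissues, 6 of the 22 members fell with ampicillin and none rose. That is 27.3% lower. Of all genes 22.9% passed, 20% lower and 2.92% higher. The 6 were receptor chains: Il21r, Il27ra, Il4ra, Il17ra, Il17rb and Il18r1. Il21r fell by 0.42 (SE 0.10, adjusted p = 0.013) and Il27ra by 0.34 (SE 0.09, adjusted p = 0.017), and both passed in all 12 fits that left out 1 sample. Il17rb had the lowest value, -0.58 (SE 0.17, adjusted p = 0.024), from levels under 50 scaled counts. Il4ra fell by 0.22 and Il17ra by 0.21 (adjusted p = 0.019 and 0.021). Il18r1 fell by 0.33 (adjusted p = 0.037) and passed in 3 of the 12 fits. Its partner Il18rap held 67.9, 66.0 and 55.7 in ampicillin spleens, which overlap the controls, and did not pass (adjusted p = 0.14).

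Scaling bears on this list. With TMM scaling Il21r, Il27ra and Il17rb were lower (adjusted p = 0.020, 0.035 and 0.039), Il13ra1 was higher, and Il4ra, Il17ra and Il18r1 did not pass (adjusted p = 0.082, 0.12 and 0.096). Of all genes 9.89% were then lower and 11.9% higher. The median log2 change of all tested genes was -0.10 with housekeeping scaling and 0.01 with TMM scaling, and that of the members -0.21 and -0.10. Without ampicillin spleen 1, 12 members passed, and without control spleen 2, 3 did. The shares of all genes in those fits are not given here, so these counts are not read as particular to the members. The ligands had no call in either tissue or in the average. Il16, the ligand of CD4, had the smallest p among them, with 1653, 1656 and 1605 scaled counts in control spleens and 1604, 1231 and 1237 after ampicillin (adjusted p = 0.099 in spleen and 0.067 in the average).

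**Figure D5:**
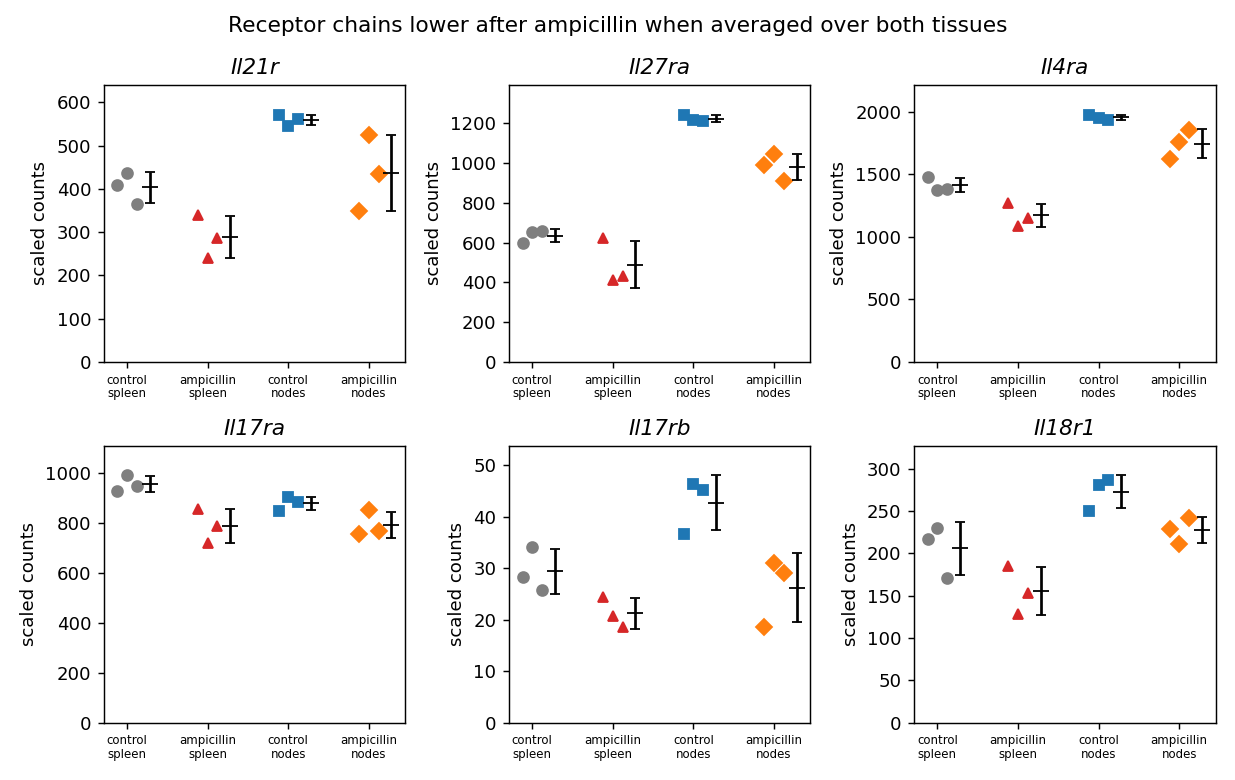
Scaled counts of the 6 receptor chains that fell with ampicillin in the average over both tissues, by group. Each coloured point is 1 sample, and black bars give the mean and SD of 3 samples. All ampicillin spleens lie below all control spleens for Il21r, Il4ra, Il17ra and Il17rb, as in 7 of the 22 members and 141 of all 445 genes. All ampicillin nodes lie below all control nodes for every gene shown except Il17ra, without a share of all genes given for nodes.

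Genes of cytokine signalling outside the member rule were counted from a list of the pathway. Of 14 signal transducers, the Jak kinases, Stat factors and their Socs and Cish inhibitors, 7 were higher in nodes of control mice and none lower, where 29.7% of all genes were higher and 34.4% lower. They include Socs1 (2.43-fold), Socs3 (1.86-fold), Jak3, the kinase that binds the common gamma chain (1.52-fold), Stat5a (1.49-fold) and Stat4, the factor of interleukin 12 (1.43-fold). With ampicillin 2 of the 14 fell in spleen, among them Stat2 by 0.48 on the log2 scale, 0 passed in nodes, and 6 fell in the average. Of all genes 14.6% fell in spleen and 20% in the average. With TMM scaling 0 of the 14 passed in spleen, and Jak3, Socs3 and Stat5a were lower in nodes and in the average. Of all genes 4.94% then passed in spleen and 7.19% in nodes, and in the average 9.89% were lower and 11.9% higher. The 6 that fell in the average with housekeeping scaling include Jak3 (-0.49), Socs3 (-0.45), Socs1 (-0.40), Stat2 (-0.33) and Stat5a (-0.26). Of 9 other cytokine receptor chains and ligands without an interleukin symbol 6 were tested. Csf2rb, the beta chain shared by the receptors of interleukins 3 and 5, was higher in control nodes (1.65-fold). Csf1, Csf1r and Csf3r, a colony-stimulating factor and receptors of such factors, were lower. For ampicillin 0 of the 6 passed in either tissue or the average with housekeeping scaling. With TMM scaling Csf1 was higher in the average, as were 11.9% of all genes. Of the 17 interleukin genes set apart 14 were tested. In control mice 6 were higher in nodes and 5 lower, beside the shares of all genes given above, and 0 passed for ampicillin in either tissue or the average with housekeeping scaling. With TMM scaling 3 of these 14 were higher in ampicillin nodes (Il1r1, Il22ra2 and Il7r) and 5 in the average (those and Il1rn and Il33). Of all genes 7.19% passed in nodes with this scaling, in either direction, and 11.9% were higher in the average.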

How the data were processed

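Whole-number counts of 561 genes in 12 samples were deposited. The design text of the series states normalization to 14 housekeeping genes in nSolver, but the deposited counts did not carry it: their totals differed between samples and so did the geometric mean of the housekeeping genes, between 912.4 and 1501 counts. They were treated as unnormalized counts. A second deposited table was not used here, because no sample label matches its 12 column names. Each sample was scaled by its housekeeping geometric mean. The names of the 14 genes come from knowledge of this panel.

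A minimum mean of 20 scaled counts left 445 of the 547 other genes, tested with edgeR 4.0.16 in R 4.3.3, with 4 group means, 8 residual degrees of freedom and p-values adjusted by Benjamini-Hochberg over the 445. Comparisons were ampicillin against control in spleen, in nodes, the difference and the mean of these, and nodes against spleen in each treatment. The SE is the log2 change over the square root of the test statistic and rests on a spread shared by all groups. The samples are single mice, and p-values measure the spread between them. Alternatives were TMM and median scaling, other filters, limma 3.58.1, DESeq2 1.42.0, the compared groups alone, a replicate block, leaving out samples and the design text's own rule.

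Named members were those called, or the 5 of smallest p, in each ampicillin comparison, and the largest called differences each way between tissues, up to 8. Other members were named after their values were seen, and 1 gene of the pathway list is not reported here by name. The members and lists were chosen with earlier results of these data known. Of the 40 symbols 39 are current in RefSeq and 1 matched a synonym. Same-numbered samples were not taken as pairs: the labels name different mice, and the correlations of deviations ran from -0.38 to 0.24.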

Additional observations from a re-analysis of the deposited data

How the results depend on the processing

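Counts of members that passed moved as follows, given here without the shares of all genes in the same fits. For ampicillin in spleen the count was 3 with edgeR and housekeeping scaling, and 0 to 11 with 1 sample left out. It was 0 with TMM scaling, median scaling, limma, the spleens alone and the replicate block. The design text's test gave 1 at its own threshold and 0 after Benjamini-Hochberg. For nodes the count was 0 with edgeR, and 0 to 1 with 1 sample left out. It was 1 with TMM and median scaling, where Il13ra1 passed, and 1 for the nodes alone, where Il27ra passed. The design text's test at its threshold gave 1. For the difference of effects it was 0, and 2 without ampicillin spleen 1, within 0 to 2 with 1 sample left out. For the mean, 6, it was 2 with median scaling and 3 to 12 with 1 sample left out. For nodes against spleen it was 15 in control mice, with 12 to 15 when 1 sample was left out, and 11 in ampicillin mice, with 11 to 13 when 1 sample was left out and 4 with the design text's test after Benjamini-Hochberg. Of the changes of named members, 2 reversed: without ampicillin spleens 2 and 3 the difference of effects was -0.00019 for Il2rb and -0.0019 for Il10rb. That fit leaves 1 ampicillin spleen, so its counts are not given. These 2 alternatives, the left-out pair and the design text's test, were added after seeing the data, and the cause of these changes was not tested. With the replicate number as a block the counts were 0 in spleen, 0 in nodes, 0 for the difference, 5 for the mean, and 15 and 11 between tissues. Same-numbered samples did not deviate together in every pair (in control mice the 3 pairs of spleen and nodes had r = 0.20, 0.02 and 0.18), and 1 of 6 spleens, 0 of 6 nodes, 5 of 6 control samples and 0 of 6 ampicillin samples correlated best with their own number. Counts of members above 20 scaled counts stayed within 15 and 22 per group with TMM scaling, a level of 50 and every sample asked to pass. Members near 20 counts are limited by counting error.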
